A study of Mus musculus with 18 samples.

Results

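The expression of PD-L1 and of 8 other immune checkpoint ligands was examined in AT3 cells, a mouse mammary carcinoma line used as a model of triple-negative breast cancer. The genes were Cd274 (PD-L1), Pdcd1lg2 (PD-L2), Cd276 (B7-H3), Vtcn1 (B7-H4), Cd80, Cd47, Pvr (CD155), Lgals9 (Galectin-9) and Nectin2 (CD112). They were taken by name, as the 9 of 43629 genes in the deposited count table whose identifiers carry these symbols, and all 9 were found. The measurements were 3′ mRNA sequencing (QuantSeq) counts of 18 libraries in 6 conditions of 3 libraries each. AT3 cells of 1 line, with no genetic change made for the experiment named in the labels, were first kept for 1 h with DMSO as vehicle, with 250 nM of A-241 or with 1000 nM of A-485. IFNγ (1 ng/mL) or no cytokine was then added for a further 2 h, so that all cells were collected at 3 h. A-241 and A-485 both inhibit the catalytic acetyltransferase domain of P300/CBP, the enzymes that acetylate histones at active enhancers and promoters. The labels describe biological triplicates and the methods technical ones, so n counts libraries, and p values measure the spread between libraries that may not be independent cultures.

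Most checkpoint ligands are surface proteins through which a cell restrains immune cells that touch it. PD-L1 and PD-L2 bind PD-1 on T cells, and their genes lie next to each other in the genome. IFNγ released by T cells signals through its receptor and the kinases Jak1 and Jak2 and raises the transcription factor Irf1, and tumor cells commonly show PD-L1 after this signal. The other ligands act on different receptors. Galectin-9 binds Tim-3 among others, CD155 and CD112 bind TIGIT and the activating receptor DNAM-1, CD47 gives macrophages a signal not to engulf the cell, and CD80 binds CTLA-4 and CD28.

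Each library held between 3417167 and 7856830 counts, with a median of 4880947.5. At this depth 6 of the 9 ligand genes were among the 11964 genes kept for testing. Cd274 was kept through its counts in the libraries with IFNγ. DMSO replicate 3 and IFNγ replicate 2 stood apart from the other libraries of their conditions, with 20.1% and 23.05% of their counts on the single gene Gm42418, against 7.11% to 16.2% in the other 16. Values without both libraries are given below for results whose call or size changed most without them. Epithelial keratins and Epcam were detected in every library, whereas Krt19 and Cldn4 had at most 1 and 2 counts, so not every listed marker of a mammary epithelial cell was present. The mesenchymal markers Vim, Fn1 and Cdh2 were also detected in every library, with at least 384, 1370 and 104 counts. Zeb1, Col1a1 and Col1a2 had at most 10, 7 and 2 counts. The 12 immune cell markers summed to between 10 and 109 counts per library. The 2 libraries with the highest sums, 61 and 109, were both of A-485 without IFNγ and held 37 and 73 counts of Ptprc (CD45). Cd274, Pdcd1lg2 and Cd80 each had 0 counts in both of them. Of the 13 checkpoint receptors of immune cells examined, Pdcd1 (PD-1) and Tigit had 0 counts in all 18 libraries. The 13 receptors summed to between 0 and 39 counts per library. The highest sums were 39 in A-485 replicate 3, where Icos and Klrc1 had 14 counts each, and 13 in IFNγ replicate 2.

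Cd274 (ENSMUSG00000016496) lies on the plus strand of chromosome 19 from 29367455 to 29388095 (GRCm38, GENCODE vM21). Its promoter is shown because Cd274 was the ligand gene with the largest response, beside that of its neighbor Pdcd1lg2 (ENSMUSG00000016498, chr19:29410919-29471161), which gave no counts, and that of Lgals9 (ENSMUSG00000001123, minus strand, chr11:78962974-78984946), the other ligand gene called with IFNγ. Each sequence runs from 250 bases before to 50 bases after a RefSeq start on GRCm38.p6, 5′ to 3′ on the strand of the gene. Capitals mark matches to the interferon regulatory factor repeat, which is GAAA, any 2 bases and GAAA again, or to TTCNNNGAA, the palindrome of IFNγ-activated sites, on either strand. The windows are chr19:29367188-29367487, chr19:29410669-29410968 and chr11:78984875-78985174.
Cd274: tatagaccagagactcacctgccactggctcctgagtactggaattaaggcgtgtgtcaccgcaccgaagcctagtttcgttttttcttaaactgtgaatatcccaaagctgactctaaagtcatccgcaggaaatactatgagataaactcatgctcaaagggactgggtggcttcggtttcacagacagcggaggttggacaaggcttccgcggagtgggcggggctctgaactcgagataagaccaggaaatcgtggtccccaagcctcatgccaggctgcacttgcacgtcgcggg
Pdcd1lg2: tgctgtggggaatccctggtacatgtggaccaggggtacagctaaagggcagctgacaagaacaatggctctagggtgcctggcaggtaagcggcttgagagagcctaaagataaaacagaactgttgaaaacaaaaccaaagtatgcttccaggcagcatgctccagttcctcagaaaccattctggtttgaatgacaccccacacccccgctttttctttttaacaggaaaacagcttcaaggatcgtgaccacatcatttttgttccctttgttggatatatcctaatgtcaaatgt
Lgals9: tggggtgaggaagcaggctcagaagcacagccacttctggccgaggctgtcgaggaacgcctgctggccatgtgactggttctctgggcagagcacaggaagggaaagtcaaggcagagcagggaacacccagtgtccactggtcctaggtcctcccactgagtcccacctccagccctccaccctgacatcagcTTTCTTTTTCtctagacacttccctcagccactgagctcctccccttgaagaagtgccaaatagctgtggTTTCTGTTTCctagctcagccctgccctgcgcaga
Neither motif was found in the Cd274 or the Pdcd1lg2 window. The Lgals9 window held the GAAA repeat 2 times on its opposite strand, printed here as TTTCTTTTTC, which begins 55 bases before the start, and TTTCTGTTTC, which begins 15 bases after it. No overlap occurred between these matches and the other motif. Across all 32817 promoter windows of the same length, 3.43% held the GAAA repeat and 8.29% held TTCNNNGAA. A match is a run of letters and not a shown binding site, and a window without one says only that these letters are not there. Among the other ligand genes with a window in the table, Cd276, Vtcn1, Cd80, Cd47 and Nectin2 held neither motif, while the first of 2 windows of Irf1 held TTCCCCGAA from 90 bases before its start.

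Cd274 was close to silent without IFNγ and rose in all libraries that received it. The counts were 0, 1 and 0 with DMSO, 2, 1 and 1 with A-241, and 0 in each of the 3 libraries with A-485. With IFNγ alone they were 175, 63 and 74, equal to 21.5, 18.7 and 12.9 CPM (counts scaled by the library totals and TMM factors). The ranges with and without IFNγ did not overlap, and the means were 17.7 CPM ± 4.37 (SD, n = 3) with IFNγ and 0.0525 CPM ± 0.0910 (SD, n = 3) with DMSO. Over the 3 libraries of each group there were 312 counts with IFNγ and 1 with DMSO, a ratio of 253 per scaled total with an exact 95% counting interval of 45.1 to 10035, and Cd274 was called as higher (edgeR quasi-likelihood test, adjusted p = 2.82e-07). Counting was done without molecular identifiers, so such intervals and limits cover counting error only. In a bulk culture, more cells that express a gene and more RNA per cell cannot be told apart. An antisense gene, AC119228.1, shares exon bases with Cd274. It was not in the count table, so its part in the Cd274 counts was not tested.

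Cd274 was lower when either inhibitor preceded IFNγ than with IFNγ alone. With A-241 and IFNγ the libraries held 10, 14 and 10 counts, or 2.171, 2.28 and 2.06 CPM. With A-485 and IFNγ they held 26, 22 and 18 counts, or 4.97, 4.47 and 3.41 CPM. All 6 libraries lay below the lowest library of IFNγ alone. The level with A-241 fell by 3.01 on the log2 scale (standard error 0.30, adjusted p = 1.77e-05, edgeR), to 12.4% of that with IFNγ alone (95% confidence interval 7.96% to 19.3%). With A-485 it fell by 2.04 (standard error 0.28, adjusted p = 0.00178, edgeR), to 24.3% (95% confidence interval 16.1% to 36.6%). The fall with A-485 was not called without IFNγ replicate 1 or without any single library of A-485 and IFNγ, 4 cases in all (adjusted p between 0.0107 and 0.0182), when only the 6 libraries compared were fitted (adjusted p = 0.105), and with 2 surrogate variables (a change of -1.35, adjusted p = 0.107). The fall with A-241 kept its call without any single library of IFNγ or of A-241 and IFNγ, in the fit of only the 6 libraries compared (adjusted p = 0.00505) and with 2 surrogate variables.

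**Figure D1:**
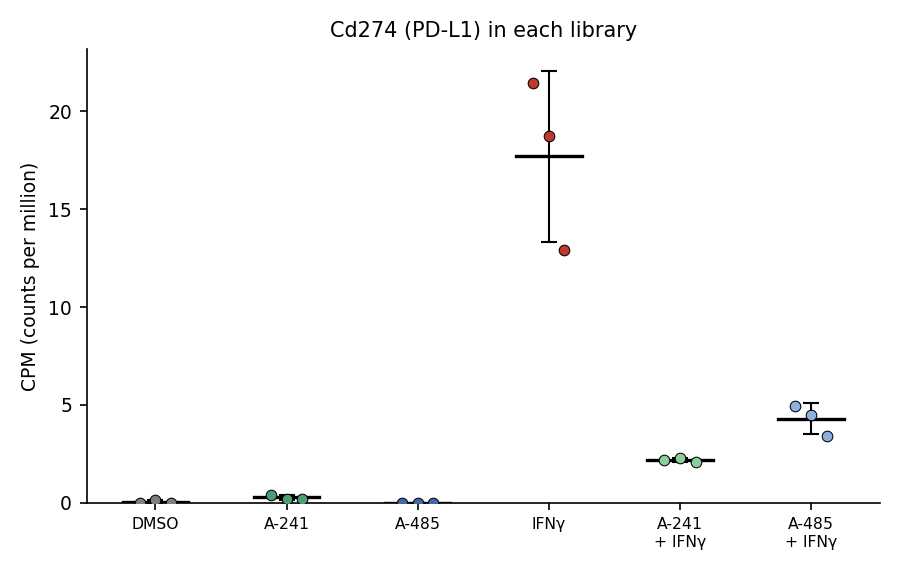
Cd274 level in each of the 18 libraries (points), in CPM on a linear axis, with the mean (line) and SD (bar) of the 3 libraries of each condition. The IFNγ libraries lie between 12.9 and 21.5, those with IFNγ and an inhibitor between 2.06 and 4.97, and those without IFNγ at 0.420 or less.

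With each inhibitor and IFNγ, Cd274 was called as higher than with DMSO when all libraries were fitted. A-485 alone had 0 counts, and with A-485 and IFNγ the level was at least 6.16-fold higher, taking as its floor 3 counts in the shallowest of the A-485 libraries (adjusted p = 2.35e-05, edgeR). Against the 1 count of DMSO, the 66 counts with A-485 and IFNγ were a ratio of 59.9 (exact counting interval 10.4 to 2401, adjusted p = 3.50e-05, edgeR) and the 34 counts with A-241 and IFNγ a ratio of 30.5 (5.12 to 1239, adjusted p = 0.000297, edgeR). In a fit of only the groups compared the call with A-485 was lost (adjusted p = 0.0112), and with A-241 Cd274 did not pass the filter on low counts. Against the 4 counts of A-241 alone, A-241 with IFNγ was at a ratio of 7.91 (2.82 to 30.7), yet this comparison did not pass the threshold (adjusted p = 0.0152, edgeR), and it passed with 2 surrogate variables (adjusted p = 0.00476). These comparisons share libraries, so they are not separate evidence. The difference between the response to IFNγ with and without an inhibitor, tested as an interaction, was not called for Cd274 (edgeR, adjusted p = 0.152 for A-241 and 1 for A-485), where 0.0334% and 0% of all genes were called. Its fitted size depends on groups with 0 to 2 counts, so nothing is read from it.

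The levels of Cd274 were therefore in the order IFNγ, A-485 with IFNγ, A-241 with IFNγ, and then the 3 conditions without IFNγ, which cannot be ordered at 0 to 2 counts. The 3 libraries of A-241 with IFNγ all lay below those of A-485 with IFNγ. The difference was -0.97 on the log2 scale (95% confidence interval -1.65 to -0.29, unadjusted p = 0.00812, edgeR), and it did not pass after adjustment (adjusted p = 0.330). The interval runs from a small difference to one of over 1.5 on this scale. The doses were 250 nM for A-241 and 1000 nM for A-485, so the compounds were not compared at a matched dose.

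Lgals9 was the other ligand gene called with IFNγ. With DMSO it was at 4.21, 3.94 and 5.52 CPM, with A-241 at 2.94, 3.997 and 3.99 CPM, and with A-485 at 3.35, 4.57 and 3.01 CPM. With IFNγ it was at 13.0, 11.6 and 10.1 CPM, above every other library. It rose by 1.37 on the log2 scale against DMSO (standard error 0.24, adjusted p = 0.00309, edgeR), a 2.59-fold change. With A-241 and IFNγ the levels were 5.21, 3.58 and 5.97 CPM, within or next to the range without IFNγ, and those with A-485 and IFNγ were 6.11, 7.11 and 7.39 CPM. The level fell by 1.24 with A-241 against IFNγ alone (standard error 0.23, adjusted p = 0.00277, edgeR), to 42.2% (95% confidence interval 30.0% to 59.5%). With A-485 the change was -0.75 (95% confidence interval -1.23 to -0.27), which was not called (adjusted p = 0.113, edgeR), although all libraries lay below those of IFNγ alone.

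The order of the Lgals9 means was IFNγ (11.6 CPM ± 1.44, SD, n = 3), A-485 with IFNγ (6.87 ± 0.674), A-241 with IFNγ (4.92 ± 1.22), DMSO (4.55 ± 0.844) and then A-485 and A-241 alone (3.64 ± 0.820 and 3.64 ± 0.611). The groups below IFNγ were not called as different by the tests run between them. The libraries of A-485 with IFNγ, at 6.11 CPM or more, still lay above those of DMSO and A-485 alone, at most 5.52 and 4.57 CPM. With all libraries fitted, A-485 with IFNγ was not called against A-485 alone. Without DMSO replicate 3 and IFNγ replicate 2, which belong to neither group, the difference was 0.91. It was not called either (adjusted p = 0.0558, edgeR). A-241 with IFNγ differed from A-485 with IFNγ by -0.49 (95% confidence interval -0.998 to 0.02, adjusted p = 0.803, edgeR), and from DMSO by 0.13 (95% confidence interval -0.41 to 0.66). The interaction of A-241 with IFNγ was -0.95 (unadjusted p = 0.0150, adjusted p = 1, edgeR). Lgals9 counts were 13 to 106 per library, and its calls were sensitive to single libraries. The rise with IFNγ lost its call without DMSO replicate 1, DMSO replicate 2 or IFNγ replicate 1 (adjusted p between 0.0206 and 0.0275), the fall with A-241 lost its call without IFNγ replicate 1, A-241 with IFNγ replicate 1 or replicate 2 (adjusted p between 0.0125 and 0.0205), and both were lost when only the groups compared were fitted (adjusted p = 0.207 and 0.0771). The fall with A-241 was also not called without the filter on low counts (adjusted p = 0.0102, edgeR).

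In number, 2 of the 6 ligand genes tested were higher with IFNγ than with DMSO and 0 were lower, where 1.2% of all genes tested were higher. Cd274, 1 of these 2, was kept for testing through its counts with IFNγ, while Pdcd1lg2, Cd80 and Vtcn1 were not kept. Counts of calls that include Cd274 are therefore not read as an excess over the shares of all genes. Against IFNγ alone, 2 of the 6 were lower with A-241 and IFNγ, where 3.54% of all genes were lower, and 1 was lower with A-485 and IFNγ, where 0.535% were. With A-485, 1 ligand gene, Cd274, was higher with IFNγ than without it, where 0.744% of genes were. With A-241 this count was 0 by edgeR, DESeq2 and limma-voom (1 at an unadjusted p under 0.05), where 0.192% of genes were called. Without IFNγ, edgeR, DESeq2 and limma-voom called 0 ligand genes with A-241 against DMSO, where 4.35% of genes were called, and 0 with A-485, where 0.66% were. At an unadjusted p under 0.05 these counts were 2 and 1. Between the inhibitors in the presence of IFNγ the 3 tools called 0 (1 at an unadjusted p under 0.05), where 0.518% of genes were called and 0.51% were lower with A-241. The median change of the 6 genes was 0.21 with IFNγ against DMSO and -0.49 and -0.36 with A-241 and A-485 against IFNγ alone, beside medians of -0.0028, -0.0183 and -0.0325 over all genes tested.

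**Figure D2:**
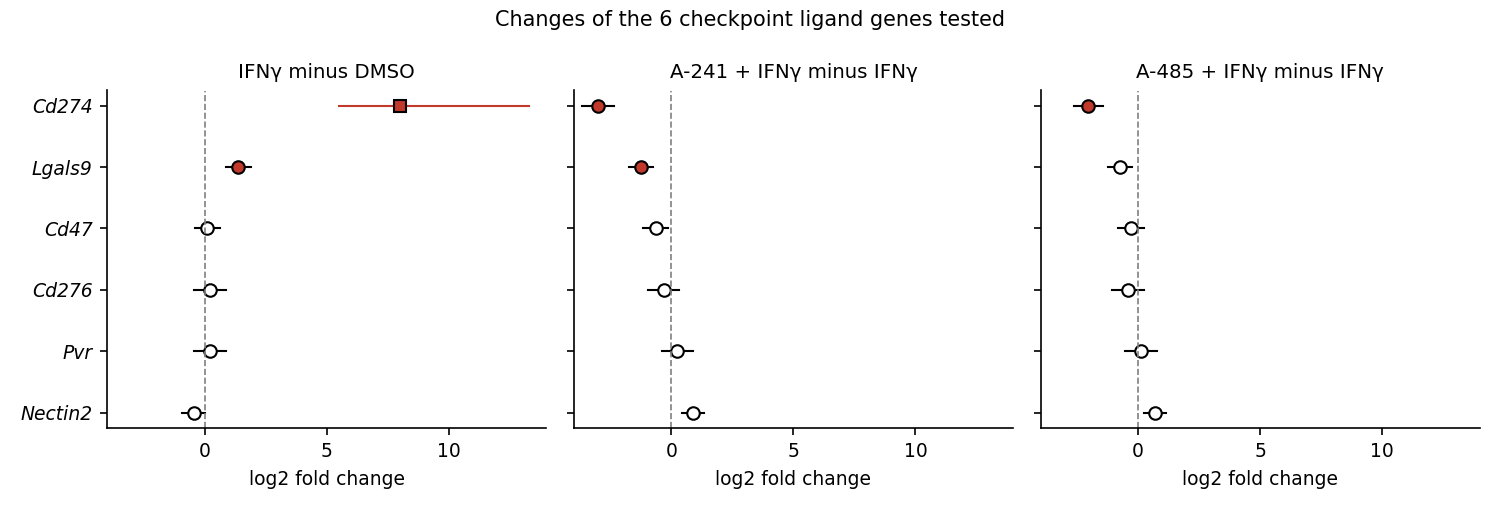
Changes on the log2 scale of the 6 ligand genes tested, for IFNγ against DMSO and for each inhibitor with IFNγ against IFNγ alone. Points are edgeR estimates with 95% confidence intervals, filled where the adjusted p was under 0.01, and the square is the ratio of the summed Cd274 counts with its exact 95% counting interval, at 7.98 (5.50 to 13.3); Cd274 has the lowest value in both comparisons of an inhibitor, -3.01 and -2.04, and Nectin2 the highest, 0.87 and 0.69.

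Nectin2 (ENSMUSG00000062300, minus strand, chr7:19716644-19750483) differed from IFNγ alone in the opposite direction to Cd274 with either inhibitor and IFNγ, but was not called. Its levels were 12.4, 11.9 and 10.8 CPM with IFNγ, 20.6, 21.2 and 22.4 CPM with A-241 and IFNγ, and 16.2, 20.5 and 20.1 CPM with A-485 and IFNγ, so that neither inhibitor group overlapped IFNγ alone. The differences from IFNγ were 0.87 (standard error 0.22, adjusted p = 0.0183, edgeR) and 0.69 (standard error 0.22, adjusted p = 0.127, edgeR), and neither passed the threshold. The difference with A-241 did pass with DESeq2 (adjusted p = 0.00390), with 2 surrogate variables (adjusted p = 0.00757) and without DMSO replicate 3 and IFNγ replicate 2 (adjusted p = 0.00674). DMSO spread over 23.3, 13.1 and 11.4 CPM and overlapped both IFNγ alone and the inhibitors alone, which lay between 18.1 and 21.4 CPM. IFNγ differed from DMSO by -0.45 (95% confidence interval -0.92 to 0.01). An antisense gene, Gm20512, shares exon bases with Nectin2 and had 0 to 3 counts per library.

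Pvr (ENSMUSG00000040511, minus strand, chr7:19903578-19921160), which like Nectin2 encodes a ligand of TIGIT, was at 6.38, 4.76 and 5.06 CPM with IFNγ, 7.38, 6.51 and 5.56 CPM with A-241 and IFNγ, and 5.35, 4.67 and 7.77 CPM with A-485 and IFNγ. These groups overlapped. The difference of IFNγ from DMSO was 0.21 (95% confidence interval -0.46 to 0.87), and those of A-241 and A-485 with IFNγ from IFNγ alone were 0.24 (-0.40 to 0.88) and 0.12 (-0.53 to 0.76). Without IFNγ, A-241 was 0.75 above DMSO (95% confidence interval 0.10 to 1.40, adjusted p = 0.152, edgeR), with DMSO at 6.10, 5.20 and 2.41 CPM and A-241 at 6.08, 8.79 and 9.04 CPM. The lowest DMSO value was that of replicate 3, and without both libraries rich in Gm42418 the difference was 0.47 (adjusted p = 0.302).

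Cd47 (ENSMUSG00000055447, plus strand, chr16:49800533-49915010) was detected in all libraries with 255 to 553 counts, and no comparison called it. With IFNγ it was at 67.8, 133 and 81.0 CPM and with DMSO at 78.9, 63.2 and 120 CPM. The highest library of each group was the one rich in Gm42418, namely IFNγ replicate 2 and DMSO replicate 3, and the part of that gene in the Cd47 values was not tested. A-241 with IFNγ lay at 56.4, 61.3 and 61.3 CPM, below all IFNγ libraries, and A-485 with IFNγ at 73.7, 77.8 and 77.3 CPM, within their range. The difference of A-241 with IFNγ from IFNγ alone was -0.65 (95% confidence interval -1.17 to -0.13, adjusted p = 0.136, edgeR), and -0.32 without both libraries (adjusted p = 0.178), while with 2 surrogate variables it was -0.51 and passed (adjusted p = 0.00254).

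Cd276 (ENSMUSG00000035914, minus strand, chr9:58524298-58555437), a B7 family member whose receptor on T cells is not settled, had 9 to 45 counts per library and was not called in any comparison. Its levels were 5.52, 3.86 and 6.11 CPM with IFNγ and 3.15, 5.04 and 5.52 CPM with DMSO, which overlapped. With A-241 alone they were 1.89, 3.20 and 3.15 CPM, a difference from DMSO of -0.71 (95% confidence interval -1.42 to -0.01, adjusted p = 0.210, edgeR), and with A-485 alone 4.40, 5.33 and 4.41 CPM. The groups with an inhibitor and IFNγ lay between 2.86 and 5.97 CPM and overlapped IFNγ alone. Gm10657 shares exon bases with Cd276 and had 0 to 2 counts per library.

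**Figure D3:**
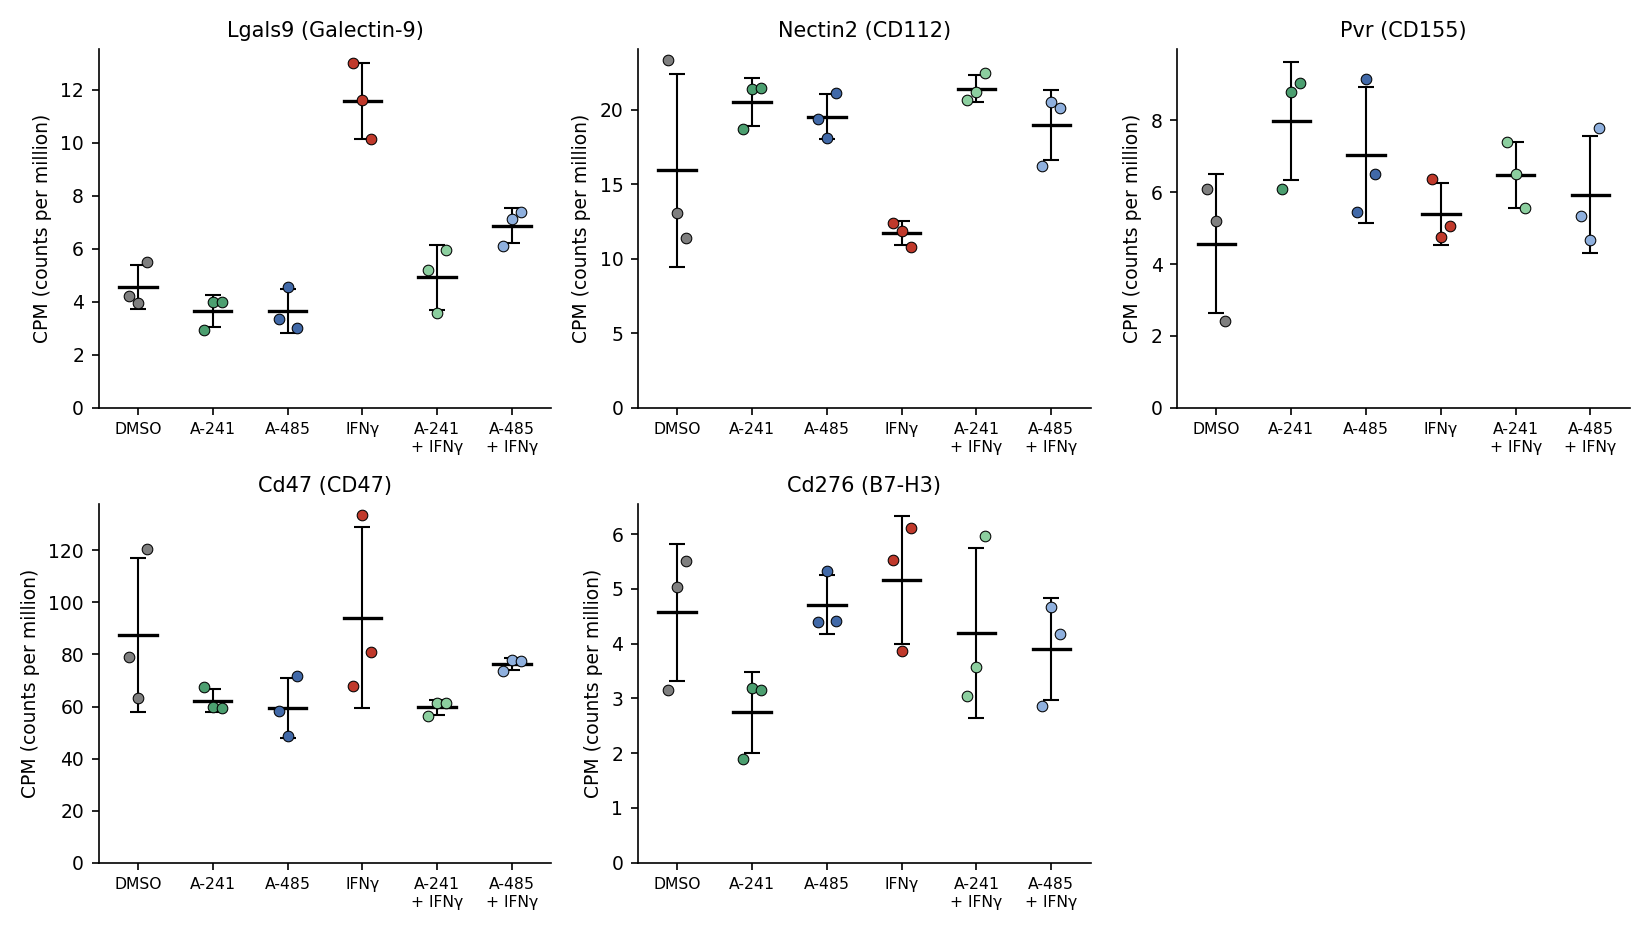
Levels of the other 5 ligand genes tested in each library (points), in CPM on linear axes that start at 0, with the mean (line) and SD (bar) of the 3 libraries of each condition. Only for Lgals9 do the IFNγ libraries, at 10.1 to 13.0, lie above those of all other conditions, and for Nectin2 they lie at 10.8 to 12.4, below every library with an inhibitor.

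The other 3 ligand genes were at or near 0 counts and were not tested. Pdcd1lg2 had 0 counts in all 18 libraries, including the 9 with IFNγ. Cd80 (ENSMUSG00000075122, plus strand, chr16:38455561-38496335) had 1 count in IFNγ replicate 2 and 0 counts in the other 17 libraries. Vtcn1 (ENSMUSG00000051076, plus strand, chr3:100825459-100896922) had 0 to 6 counts, with its highest in DMSO replicate 2 and 2, 1 and 4 counts with IFNγ. A change of these genes with IFNγ or an inhibitor was not detectable at this depth, where 3 counts correspond to at most 1.03 CPM.

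Pdcd1lg2 begins 22824 bases beyond the end of Cd274, and its lack of counts raised the question whether other genes of this stretch of chromosome 19 responded. Of 26 genes annotated within 500 kb of Cd274, 20 were in the count table and 12 were tested. With IFNγ against DMSO 0 of the 12 were called by edgeR, where 1.2% of all genes were higher. At this share 0 of 12 does not set these genes apart. The median change of the 12 was 0.04. Of the genes in the count table, the nearest to Cd274 is Plgrkt, a plasminogen receptor. Plgrkt ends 65 bases before the start of Cd274 and is read in the opposite direction. Its levels were 4.21, 10.6 and 11.4 CPM with DMSO and 24.6, 19.0 and 16.1 CPM with IFNγ, which did not overlap. The difference of 1.21 on the log2 scale (95% confidence interval 0.31 to 2.11) was not called (adjusted p = 0.290, edgeR). Plgrkt with IFNγ and A-241 or A-485 differed from IFNγ alone by -0.41 and -0.88 (adjusted p = 0.625 and 0.335, edgeR). Jak2, 54375 bases before Cd274, encodes a kinase of the IFNγ receptor. Its change with IFNγ was 0.95 (standard error 0.42, adjusted p = 0.529, edgeR), and with A-241 or A-485 and IFNγ against IFNγ it was 0.16 and -0.09 (adjusted p = 0.867 and 0.938). The 1 neighbor called in any of these comparisons was Rcl1, a gene of ribosomal RNA processing. Rcl1 fell by 0.80 with A-241 against DMSO (adjusted p = 0.00324, edgeR), where 3.53% of all genes were lower. Without any single one of 5 of the 6 libraries Rcl1 was not called (adjusted p between 0.0108 and 0.0237), nor in a fit of only the groups compared (adjusted p = 0.0610). Rcl1 was also not called without the filter on low counts (adjusted p = 0.0218, edgeR).

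**Figure D4:**
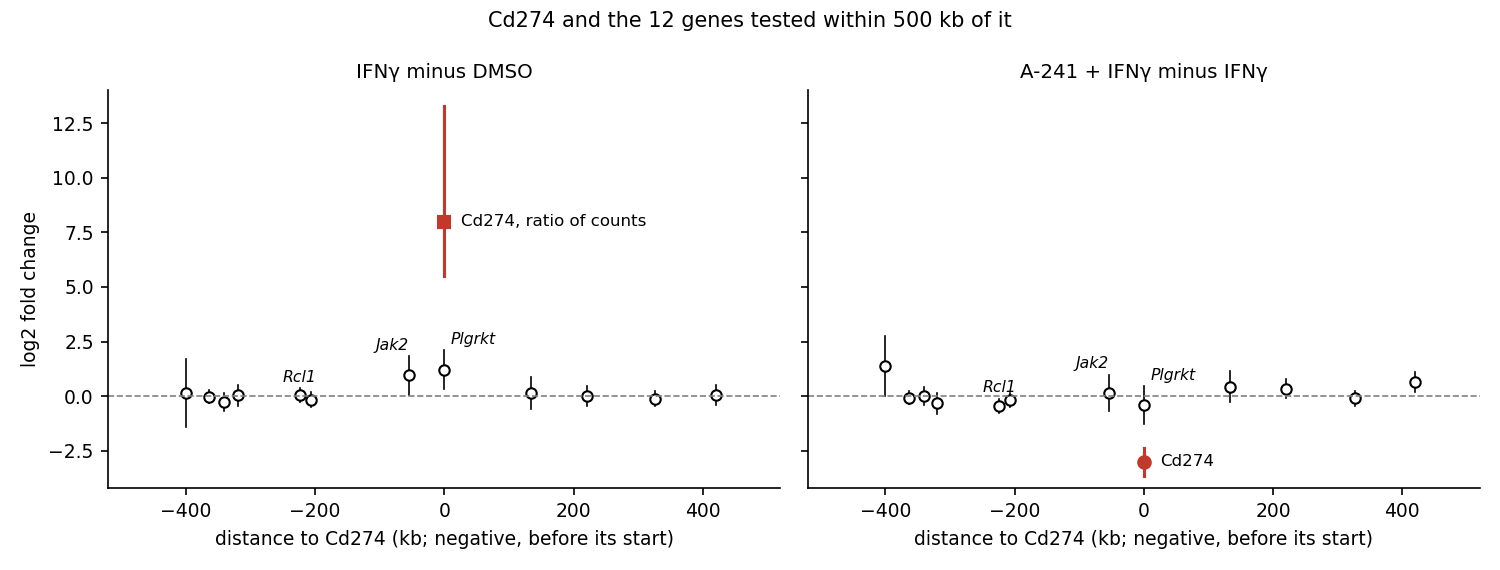
Change on the log2 scale of Cd274 (filled) and of the 12 genes tested within 500 kb of it (open, with 95% confidence intervals), against their distance from Cd274 in kb. With IFNγ against DMSO the genes other than Cd274 lie between -0.27 and 1.21, and the Cd274 square is the ratio of its summed counts at 7.98 with an exact 95% counting interval; with A-241 and IFNγ against IFNγ they lie between -0.44 and 1.38 while Cd274 is at -3.01.

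Among 12 genes of the IFNγ signaling pathway, all tested, 3 were higher with IFNγ, where 1.2% of all genes were, and 0 were lower, with a median change of 1.08. These were Socs1, Irf1 and Stat2. Against IFNγ alone, 1 of the 12, Stat2, was lower with A-241 and IFNγ, where 3.54% of all genes were. Stat2, a signal transducer of interferon receptors, was at 7.15, 5.04 and 6.55 CPM with DMSO and 35.9, 40.4 and 29.3 CPM with IFNγ, a rise of 2.50 on the log2 scale (standard error 0.23, adjusted p = 2.45e-06, edgeR), which was not called when only the groups compared were fitted (adjusted p = 0.0150). It was at 15.6, 20.7 and 14.6 CPM with A-241 and IFNγ and at 24.6, 22.8 and 20.3 CPM with A-485 and IFNγ, all below IFNγ alone and above every library without IFNγ. The fall with A-241 was 1.05 (a change of -1.05, adjusted p = 0.00413, edgeR), a call lost without IFNγ replicate 1 or 2 or A-241 with IFNγ replicate 1 or 3 (adjusted p between 0.0112 and 0.0276), when only the groups compared were fitted (adjusted p = 0.0771) and with library totals in place of TMM (adjusted p = 0.0191). The difference with A-485 was -0.64 and was not called (adjusted p = 0.138, edgeR).

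Irf1 stayed induced with both inhibitors. It was at 720, 408 and 819 CPM with IFNγ, 352, 351 and 365 CPM with A-241 and IFNγ, and 473, 587 and 464 CPM with A-485 and IFNγ, against 11.4 to 24.1 CPM in the 9 libraries without IFNγ. The rise was 5.05 without inhibitor, 4.10 with A-241 and 4.64 with A-485 (adjusted p = 3.52e-08, 1.16e-06 and 1.09e-07, edgeR). Against IFNγ alone, A-241 with IFNγ differed by -0.87 (adjusted p = 0.0547, edgeR) and A-485 with IFNγ by -0.35 (adjusted p = 0.549, edgeR). Without IFNγ replicate 2 the difference with A-241 was -1.11 and was called (adjusted p = 0.00514). Without both DMSO replicate 3 and IFNγ replicate 2, the Irf1 difference was -1.12 with A-241 (adjusted p = 1.46e-05) and -0.61 with A-485 (adjusted p = 0.0124). With 2 surrogate variables both were called, at -1.14 and -0.66 (adjusted p = 9.31e-10 and 0.000640). Socs1, an inhibitor of the Jak kinases, had 511, 4 and 320 counts with IFNγ, so that IFNγ replicate 2 was near the level without IFNγ. The same library held 63 counts of Cd274, or 18.7 CPM, within the range of the other IFNγ libraries. Socs1 was higher with IFNγ than with DMSO (adjusted p = 0.00214, edgeR), a call lost without DMSO replicate 1 or 2 (adjusted p = 0.0211 and 0.0165) and with limma-voom (adjusted p = 0.446). Its differences with A-241 and A-485 from IFNγ alone, -1.37 and -1.01, were not called with all libraries (adjusted p = 0.293 and 0.516, edgeR), and the one with A-241 was called without IFNγ replicate 2 (-1.90, adjusted p = 0.00213). Without both DMSO replicate 3 and IFNγ replicate 2, Socs1 was called as lower with A-241 (-1.91, adjusted p = 8.89e-05) and with A-485 (-1.57, adjusted p = 0.00168). With 2 surrogate variables the one with A-241 was called (-1.37, adjusted p = 2.84e-05).

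**Figure D5:**
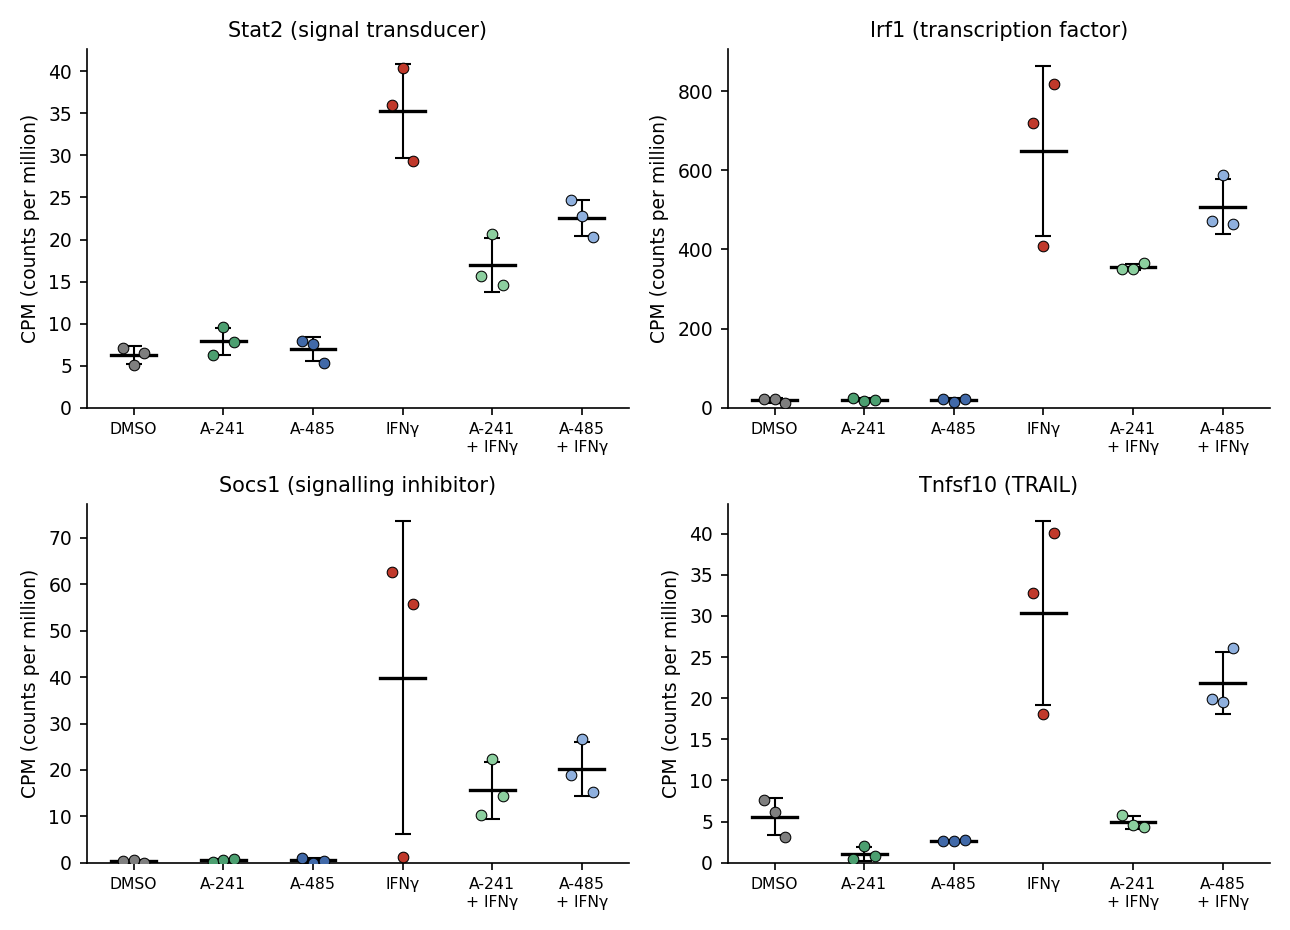
Levels of Stat2, Irf1, Socs1 and Tnfsf10 in each library (points), in CPM on linear axes that start at 0, with the mean (line) and SD (bar) of the 3 libraries of each condition. With A-241 and IFNγ, Irf1 is at 351 to 365, above the libraries without IFNγ at 11.4 to 24.1, and Socs1 in IFNγ replicate 2 is at 1.19 while the other IFNγ libraries are at 62.7 and 55.8.

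Genes whose levels followed Cd274 over the 18 libraries were sought among the 11964 genes tested. The ligand genes and a pathway gene not reported here were left out. The closest were Igtp (Pearson r = 0.97), Jun (0.97), Stat2 (0.96), Gbp7 (0.96) and Iigp1 (0.95). Igtp, Gbp7 and Iigp1 encode interferon-inducible GTPases and Jun a subunit of the AP-1 transcription factor. The libraries share the 6 conditions and fall into groups with and without IFNγ, so these values describe the common pattern of conditions and carry no test. Stat2 is also a member of the pathway list.

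Of 30 other ligands of immune cell receptors, 13 were tested. With IFNγ 1 was higher and 0 were lower, with a median of 0.12. That gene was Tnfsf10, which encodes TRAIL, a ligand that can trigger the death of cells bearing its receptors. It was at 7.57, 6.14 and 3.10 CPM with DMSO and at 32.7, 18.1 and 40.1 CPM with IFNγ, a rise of 2.40 (adjusted p = 0.000500, edgeR), where 1.2% of all genes were higher. With A-241 and IFNγ it was at 5.86, 4.56 and 4.32 CPM, a fall of 2.64 against IFNγ alone (adjusted p = 0.000115, edgeR), and with A-485 and IFNγ at 19.9, 19.5 and 26.2 CPM, within the range of IFNγ alone. In fits of only the groups compared neither the rise (adjusted p = 0.123) nor the fall (adjusted p = 0.0118) was called. Tnfsf10 was 2.15 lower on the log2 scale with A-241 and IFNγ than with A-485 and IFNγ (-2.15, adjusted p = 0.00307, edgeR). It was not called after the removal of any single one of the 6 libraries (adjusted p between 0.0104 and 0.0358), at the doses named above, which differ. Nor was it called with library totals in place of TMM (adjusted p = 0.0147, edgeR) or with the replicate number in the model (adjusted p = 0.0111, edgeR). Unlike Cd274 it was detected without IFNγ, where it was lower with A-241 than with DMSO (-2.37, adjusted p = 0.00313, edgeR), a call lost without DMSO replicate 1 or 2 or A-241 replicate 1 or 3 (adjusted p between 0.0112 and 0.0232), with limma-voom (adjusted p = 0.0159), with library totals in place of TMM (adjusted p = 0.0109) and in a fit of only the groups compared (adjusted p = 0.0730).

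With A-241 alone, 3 of these 13 were lower than with DMSO (3.53% of all genes were) and 0 higher, with a median of -0.47 beside 0.0138 over all genes. Besides Tnfsf10 they were Cd200, whose protein restrains myeloid cells through the receptor CD200R, and Ceacam1, a ligand of Tim-3 and of itself. Cd200 was at 7.36, 10.6 and 5.86 CPM with DMSO and 2.31, 1.80 and 2.73 CPM with A-241 (-1.82, adjusted p = 0.000848, edgeR), and at 9.32, 6.24 and 10.3 CPM with IFNγ and 2.82, 3.42 and 4.73 CPM with A-241 and IFNγ (-1.25, adjusted p = 0.00836, edgeR). The call with IFNγ did not hold after the removal of any single library except IFNγ replicate 2 (adjusted p between 0.0113 and 0.0547). In fits of only the groups compared Cd200 was called neither without IFNγ (adjusted p = 0.0350) nor with it (adjusted p = 0.121), and the call with IFNγ was also lost with library totals in place of TMM (adjusted p = 0.0393) and without the filter on low counts (adjusted p = 0.0234). Ceacam1 was at 4.21, 6.46 and 4.83 CPM with DMSO and 1.26, 1.80 and 2.102 CPM with A-241 (-1.59, adjusted p = 0.00365, edgeR), a call lost without DMSO replicate 2 or any A-241 library (adjusted p between 0.0111 and 0.0272), without the filter on low counts (adjusted p = 0.0139) and in a fit of only the groups compared (adjusted p = 0.0590). Neither gene was among those higher with IFNγ. With A-485, 0 of the 13 were called against DMSO, where 0.66% of all genes were. With A-485 and IFNγ, 0 were called against IFNγ alone, where 0.535% of all genes were lower. At these shares 0 of 13 does not set these genes apart.

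Of 18 genes known to regulate PD-L1, all tested, which include Cmtm6, a protein that keeps PD-L1 at the cell surface, 0 were called with IFNγ against DMSO by edgeR. Over all genes tested, 1.2% were higher in this comparison. With A-241 alone 1 was called against DMSO, where 4.35% of all genes were, a share near that of 1 in 18. This was Myc, a transcription factor, which had 42, 66 and 63 counts with DMSO and 2, 4 and 0 counts with A-241 (-4.93, adjusted p = 0.000115, edgeR). With IFNγ it had 93, 88 and 57 counts, and 6, 7 and 6 counts with A-241 and IFNγ (-3.64, adjusted p = 0.000306, edgeR). Neither Myc call held in fits of only the groups compared (adjusted p = 0.0142 and 0.0123). Myc was lower with A-241 while Cd274 had at most 2 counts with A-241 and DMSO alike, so a change of Cd274 in the absence of IFNγ could not be measured.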

How the data were processed

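Counts per gene were deposited by the authors as raw whole numbers, 1 column per library, without normalization. Per the submitters' processing notes, reads were handled with bcl2fastq 2.17.1.14, FastQC 0.11.5, cutadapt 1.7, HISAT2 2.1.0 (mm10) and featureCounts. Reads on exons of several genes were counted for each, and no strand option is named, so genes sharing exon bases share reads. The annotation release is not given in the sources used here. Identifiers were joined to GENCODE vM21, and 42462 of 43629 (97.3%) had a symbol.

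Genes were kept by filterByExpr (11964), scaled by TMM factors and fitted with edgeR 4.0.16 in R 4.3.3 in 1 model of 6 group means over all 18 libraries. Comparisons were tested with glmQLFTest and adjusted by Benjamini-Hochberg over all genes tested, with calls made where the adjusted p was under 0.01. Dispersion corresponded to a common biological coefficient of variation of 0.263. Ratios of summed Cd274 counts have exact Clopper-Pearson intervals (95%), and a group at 0 counts in every library was set to 3 counts in its shallowest library for a lower bound. Every pair of libraries of a condition differed by more than sampling noise (chi-square per degree of freedom of at least 2.09). Total counts were 3417167 to 7856830. The script was tested on simulated data.

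The ligand genes, the other gene lists and the tests were chosen with earlier results of these data known. All 9 ligand genes were named, with Irf1, Jak2 and Socs1, up to 5 called genes per list and comparison by size of change, and the 5 genes with the highest Pearson r with Cd274 on log2 CPM (prior count 2). A gene of the pathway list is not reported here. Plgrkt was named after its values were seen. Cd274 shares exon bases with an antisense gene, AC119228.1, which was not in the count table. Promoters are from RefSeq (GRCm38.p6), and that of Pvr was not used here. Alternatives were DESeq2 1.42.0, limma-voom (limma 3.58.1), RLE factors or total counts, no filter, the replicate block, fits of only the groups compared, libraries left out, 2 surrogate variables (sva 3.50.0) and a threshold of 0.05.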

Additional observations from a re-analysis of the deposited data

How the results depend on the processing

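Values are changes on the log2 scale. The calls of Cd274 with IFNγ against DMSO and with A-241 and IFNγ against IFNγ held under every alternative run. The call with A-485 and IFNγ did not hold in a fit of only the groups compared (-2.05) or with 2 surrogate variables (-1.35), or without any 1 of the 4 libraries given above, and held otherwise. Cd274 with A-241 and IFNγ against A-241 was called with 2 surrogate variables (2.80) and at a threshold of 0.05 (2.87). The number of ligand genes called with A-241 and IFNγ against IFNγ was 1 without the filter on low counts and 4 with 2 surrogate variables. In fits of only the groups compared the number was 1 for this comparison and for IFNγ against DMSO, and 0 for A-485 with IFNγ, which was also 0 with 2 surrogate variables. Changes that reversed sign were uncalled in the main analysis. Without both DMSO replicate 3 and IFNγ replicate 2 they were Jak2 with A-241 and IFNγ (-0.032), Cd47 with A-485 and IFNγ (0.028) and the Cd274 interaction with A-485 (0.27). With 2 surrogate variables they were Jak2 with A-241 and IFNγ (-0.31), Cd276 between the inhibitors with IFNγ (-0.021), Cd47 with A-241 and IFNγ against A-241 (0.0082) and the Cd274 interaction with A-485 (0.51). The Cd274 interaction values rest on A-485 alone at 0 counts, where a fitted change is set in part by the prior count of the fit. That prior count was not varied. The cause of the changes in sign was not tested.

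With each library left out in turn, the change with A-485 and IFNγ against IFNγ ranged from -2.23 to -1.87 for Cd274, from -0.17 to 0.27 for Pvr, from -0.48 to 0.025 for Cd47 and from -0.29 to 0.088 for Jak2. Jak2 with A-241 and IFNγ ranged from -0.28 to 0.36. IFNγ against DMSO ranged from -0.024 to 0.43 for Pvr and from -0.22 to 0.41 for Cd47, and A-485 against DMSO from -0.15 to 0.19 for Cd276. Nectin2 ranged from -0.00073 to 0.10 for IFNγ with A-241 and from -0.10 to 0.057 with A-485. Between the inhibitors with IFNγ, Pvr ranged from -0.0098 to 0.38 and Cd276 from -0.21 to 0.28. The interactions ranged from -0.47 to 0.18 for Cd47 with A-241, from -0.054 to 0.59 for Cd47 with A-485 and from -2.04 to 0.39 for Cd274 with A-485. The number of ligand genes called ranged from 1 to 2 with IFNγ, from 1 to 2 with A-241 and IFNγ, and from 0 to 1 with A-485 and IFNγ.

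The replicate numbers did not show a pairing of the libraries. Over the 45 pairs of libraries with the same number in different conditions, the correlation of their deviations from the group means ranged from -0.80 to 0.48, and a library correlated best with its own number in 32 of 90 cases. With the replicate block, Cd274 was at -2.99 with A-241 and IFNγ and at -2.03 with A-485 and IFNγ against IFNγ, and no call of a ligand gene changed. Among the 95 results fitted with the block, the 2 calls that were lost were Cd200 with A-241 and IFNγ (adjusted p = 0.0184, edgeR) and Tnfsf10 between the inhibitors with IFNγ (adjusted p = 0.0111, edgeR). Over all genes, DESeq2 called 22 higher and 211 lower with A-485 and IFNγ against IFNγ (edgeR 2 and 64). With A-485 against DMSO it called 10 and 229 (edgeR 5 and 74). For A-241 with IFNγ against IFNγ it called 148 and 608 (edgeR 65 and 424). Fits of only the groups compared called fewer against IFNγ or DMSO and more in the other pairs. Against IFNγ, A-485 with IFNγ had 0 and 0 calls and A-241 with IFNγ 1 and 82. Against DMSO, A-485 had 0 and 0, A-241 1 and 74, and IFNγ 19 and 0 (edgeR on all libraries 144 and 12). A-485 with IFNγ against A-485 had 154 and 30 (edgeR 89 and 7). With 2 surrogate variables IFNγ against DMSO gave 352 higher and 111 lower.

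Depth limits what can be said of the rarest ligand genes. Pdcd1lg2, Cd80 and Vtcn1 were not tested, and Cd274 was at 0 to 2 counts without IFNγ, so that an effect of an inhibitor on its level without IFNγ was not detectable at this depth. The lowest counts in a library were 13 for Lgals9, 7 for Pvr and 9 for Cd276.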
